A study of Mus with 51 samples.

Results

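The mitochondrial ribosome and the mitochondrial protein import machinery were followed through the genes named for them in the count table. Members were the rows whose symbol begins with Mrpl, Mrps, Timm or Tomm followed by a digit, without symbols holding "-ps", a rule that left out 4 rows and used no measured value. It gave 102 of 34923 features. They fall into 76 genes named for the mitochondrial ribosome (47 Mrpl, for its large subunit, and 29 Mrps, for its small subunit) and 26 genes of protein import (15 Timm, inner membrane; 11 Tomm, outer membrane), and these 2 families are also given apart. The count filter was passed by 98 members, which were all 76 of the ribosome and 22 of import. The other 4 had few reads over all libraries: 33 for the Timm10b row with the identifier ENSMUSG00000110234, 25 for Tomm20l, 22 for Tomm6 and 90 for Tomm6os, an antisense RNA.

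The libraries came from lymph node CD4 T cells of 5C.C7 mice, which carry 1 transgenic T cell receptor (Tcra5CC7, Tcrb5CC7) and the null allele Rag2tm1Fwa on a B10.A background, and all groups share these alleles. Mice with no working Rag2 make no B cells and no T cells other than those of the transgene; the labels do not state whether both copies are lost. Sorted cells were labelled no peptide (NP), GP, MCC CD69-lo, MCC+GP CD69-lo, MCC CD69-hi or MCC+GP CD69-hi, each at 1, 6 and 24 h. MCC is the moth cytochrome c peptide, the agonist of this receptor, and GP is not spelled out in the labels of the study, whose title speaks of self-peptides. CD69 is an early activation marker by which MCC-exposed cells were divided. Of the 18 groups, 15 hold 3 libraries and 3 hold 2 (NP, GP and MCC CD69-lo at 6 h), 51 in all. The ages of the animals and the peptide doses are not given in the labels, and nothing there says that libraries of a group came from separate animals, so p-values measure the spread between these libraries, which may be technical.

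Total counts per library had a median of 5436653 and ran from 29030 to 10278776. The 3 MCC+GP CD69-lo libraries at 24 h were the shallowest, at 29030 to 301455. The MCC CD69-hi libraries at 1 h held 852129 to 3346959 reads and the MCC+GP CD69-hi libraries at 1 h 930161 to 1105292. CPM stands for reads of a gene over the TMM-scaled total of its library, the scaling used in the test. Sums of cell type genes, here and below, are the exception and were taken over the raw library total, without TMM. On that raw scale, defining T cell genes (Cd3e, Cd4, Lck and 6 others) summed to 1639 to 6448 CPM across libraries, and none was at 0 in any group. B cell genes (10, among them Cd79a and Pax5) summed to 200.4 ± 47.4 CPM (SD, n = 3) in NP at 1 h and to 1656 ± 448 in MCC CD69-hi at 1 h, to 190.3 and 671.3 at 6 h, and to 206.5 and 58.5 at 24 h. Myeloid and dendritic genes summed to 58.3, 76.7 and 136.4 CPM in NP at 1, 6 and 24 h and to 287.7, 715.1 and 185.6 in MCC CD69-hi, and reached 7954 ± 1907 in MCC+GP CD69-lo at 24 h. In such bulk libraries, fewer cells of a type and less RNA per cell cannot be told apart.

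Mitochondria keep a small genome whose messages, nearly all for respiratory chain subunits, are read by a dedicated ribosome. The proteins of that ribosome, like most mitochondrial proteins, are made in the cytosol from nuclear genes and have to be imported. Precursors pass the outer membrane through the TOM complex and are then handed to the TIM23 complex, for proteins with a presequence, or by the small Tim chaperones to the TIM22 complex, for carrier proteins. T cells that leave the resting state are known to enlarge their mitochondria and to raise mitochondrial translation.

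The genes lie on 20 chromosomes, with at most 11 on any of them, and in 3 pairs members overlapped or lay within 50 kb of each other (Tomm6 and Tomm6os, Timm9 and Tomm20l, and Mrpl46 and Mrps11, whose gap is 42 bp). Positions are those of RefSeq on GRCm38, the mm10 build of the files. Another RefSeq gene overlapped 38 of the members, and for 31 of them that neighbour has its own row in the count table. How reads in shared stretches were assigned is not given in the sources used here.

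As a sum, the ribosomal genes stood at the NP level in CD69-hi cells at 1 h and well above it at 6 and 24 h. Summed over the 76 genes, the NP libraries held 1730, 1640 and 1531 CPM at 1 h, 1544 and 1453 at 6 h, and 1463, 1468 and 1564 at 24 h. The MCC CD69-hi libraries held 1699, 1534 and 1638 CPM at 1 h, 3159, 3375 and 3276 at 6 h, and 4804, 4630 and 4683 at 24 h. The groups overlapped at 1 h and were far apart at 6 and 24 h.

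The 26 import genes together gave 847.0, 814.3 and 699.6 CPM in NP at 1 h, 653.9 and 636.9 at 6 h, and 604.7, 626.8 and 657.1 at 24 h. In MCC CD69-hi they gave 963.0, 896.2 and 883.8 CPM at 1 h, 2039, 2189 and 2192 at 6 h, and 2670, 2546 and 2637 at 24 h. The CD69-hi libraries were the higher ones at every time, by a small margin at 1 h. MCC CD69-lo sums stayed near NP, at 1548 ± 29.9, 1438 ± 109 and 1564 ± 190 CPM for the ribosome and 778.8 ± 11.1, 693.9 ± 49.1 and 646.6 ± 85.9 for import at the 3 times (SD, n = 3, 2 and 3). On the deposited length-scaled values, all 102 members together took 0.2585% of the transcript signal in NP and 0.8042% in MCC CD69-hi at 24 h.

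**Figure D1:**
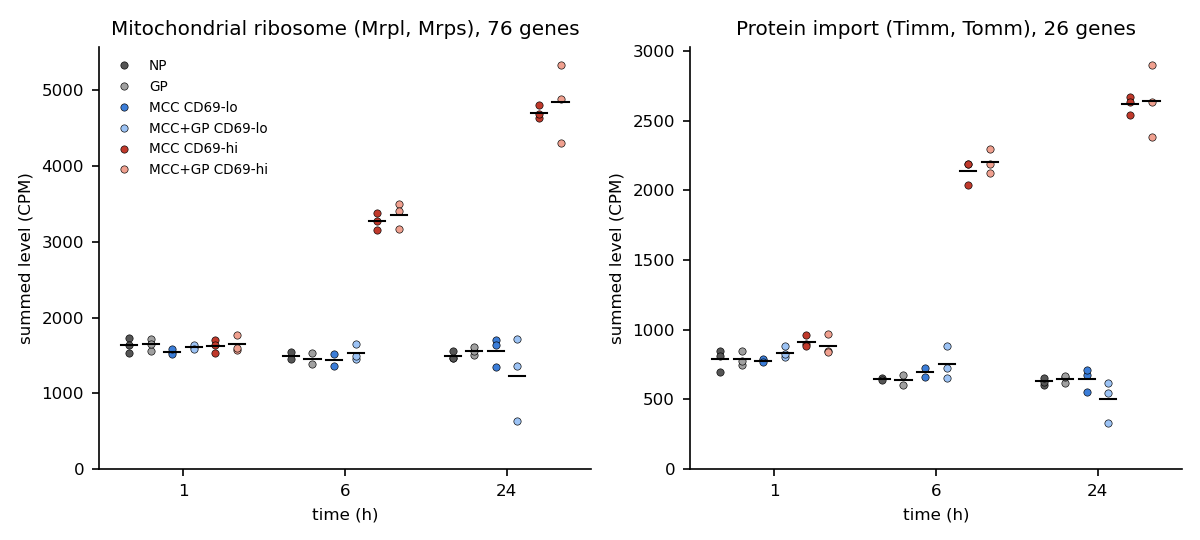
Summed CPM of the 76 Mrpl and Mrps genes (left) and of the 26 Timm and Tomm genes (right) in each library against time in hours, coloured by sorted group; bars are group means. Both CD69-hi groups lie above the other 4 at 6 and 24 h, at 4706 CPM (ribosome) and 2618 CPM (import) on average in MCC CD69-hi at 24 h.

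The first comparison asked how MCC CD69-hi cells differed from NP at the same time. The NP groups carry no CD69 label, so MCC exposure and the CD69 sort cannot be told apart in it. Here and throughout, differences are log2 fold changes ± SE from edgeR's quasi-likelihood test, and a gene rose or fell where its Benjamini-Hochberg adjusted p over 17211 genes was under 0.05. At 1 h, 6 ribosomal genes rose and 6 fell of 76, and 7 import genes rose and 1 fell of 22. Of all genes tested, 12.4% rose and 17.0% fell at 1 h, so the ribosomal share, 7.89% in either direction, was below both. Median differences were 0.00 for the ribosome, 0.39 for import and -0.05 for all genes. With another scaling (DESeq2's size factors in the same test) the split of called members moved from 13 higher and 7 lower (65.0% higher) to 17 and 3 (85.0%).

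At 6 h, 58 of the 76 ribosomal genes and 16 of the 22 import genes rose and none of either family fell, against 23.2% higher and 23.6% lower among all genes. At that time DESeq2 called 3 members lower, and edgeR with the RLE scaling 1. The medians were 1.11 for the ribosome, 1.64 for import and 0.00 for all genes. By 24 h, 74 of 76 ribosomal genes rose and 1 fell, and 19 of 22 import genes rose and 1 fell, where 29.2% of all genes rose and 28.7% fell. DESeq2 called 91 members higher and 5 lower at 24 h, and edgeR with the RLE scaling 90 and 3. Medians at 24 h were 1.82, 2.07 and -0.14; the RLE scaling moved the last to -0.28 and the median of all members from 1.84 to 1.69.

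The genes that rose at 1 h also rose at both later times, as did most members. In all, 57 of 76 ribosomal and 16 of 22 import genes rose at both 6 and 24 h. The same share over all genes is not given here. Those that rose at 1 h were Mrpl12, Mrpl17, Mrpl20, Mrpl36, Mrpl51 and Mrps36 of the ribosomal family. Of the import family they were Timm10, Timm17b, Timm50, Timm8a1, Tomm20, Tomm40 and Tomm5. The call of Timm17b was lost at 1 h without MCC CD69-hi replicate 1 or NP replicate 3, and at 6 h without MCC CD69-hi replicate 2 or 3 or NP replicate 1 (highest adjusted p 0.192 and 0.2). B cell and myeloid genes were higher in CD69-hi than in NP at 1 and 6 h, as given above. With the summed B cell RNA as a covariate, 13 members were called at 1 h instead of 20, 73 at 6 h instead of 74 and 93 at 24 h instead of 95; the part of myeloid RNA was not tested.

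**Figure D2:**
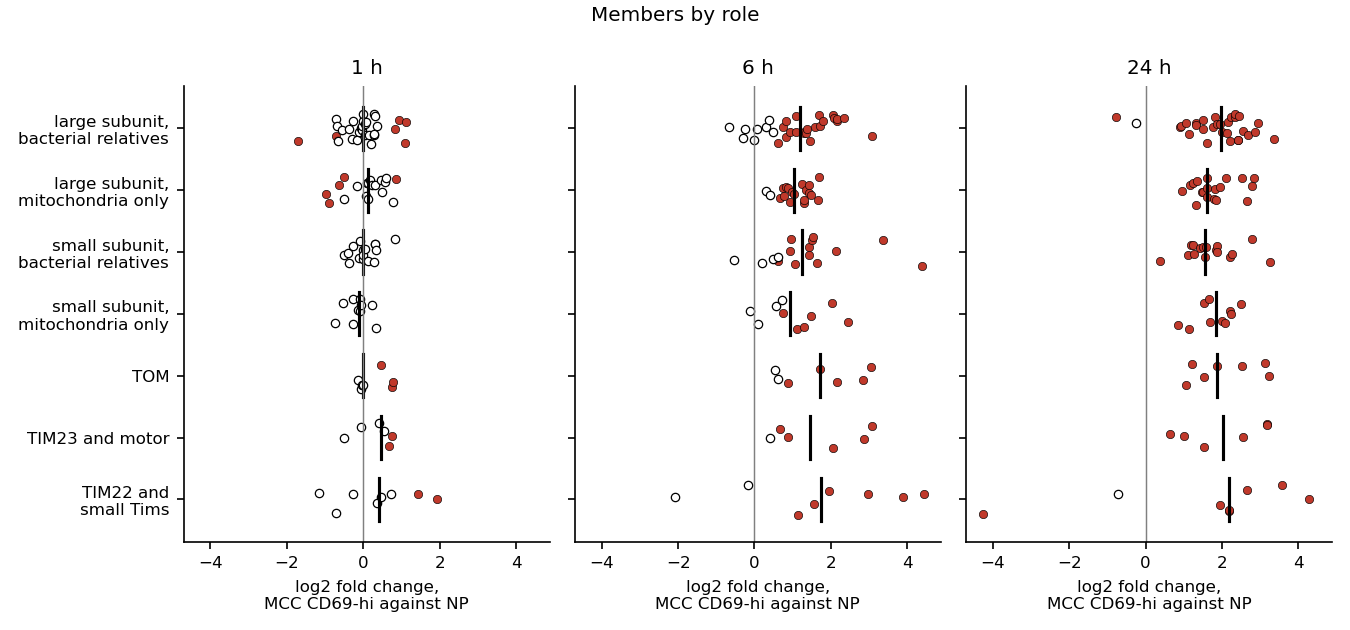
Log2 fold change of MCC CD69-hi against NP (horizontal) for each tested subunit gene, in rows by role, at 1, 6 and 24 h; filled points passed the test, open points did not, and bars are medians. Points straddle 0 at 1 h and lie almost entirely to the right of it at 24 h, with Mrpl24 and Timm8a2 called on the left.

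The large subunit was split into proteins with bacterial relatives and proteins found only in mitochondria; Mrps18a and Mrps30 were counted with it, where their proteins are known to sit, and Mrps36 with neither subunit. Of 30 with bacterial relatives, 22 rose at 6 h (median 1.19) and 28 at 24 h (median 1.97), 1 falling at 24 h. Of 19 found only in mitochondria, 17 rose at 6 h (1.03) and all 19 at 24 h (1.60). In the small subunit, 12 of 16 genes with bacterial relatives rose at 6 h (1.25) and 16 of 16 at 24 h (1.57). Of its 10 genes found only in mitochondria, 6 rose at 6 h (0.94) and 10 at 24 h (1.83). Mrps18a and Mrps18b were counted as found only in mitochondria, in the large and the small subunit. Both are paralogs of Mrps18c, which was counted with bacterial relatives, so the class name does not hold for them. Of all genes, 23.2% rose at 6 h and 29.2% at 24 h. The classes were not tested against each other.

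Mrpl12, on chromosome 11 at chr11:120484637-120488754, encodes the stalk protein of the large subunit, the counterpart of the bacterial protein that recruits translation factors. Its level was 9.07, 8.40 and 9.43 CPM in the NP libraries at 1 h and 24.4, 15.2 and 17.6 in MCC CD69-hi. At 6 h, 7.25 and 6.51 CPM in NP stood against 64.8, 56.3 and 53.1, and at 24 h 9.05, 7.72 and 9.87 against 94.3, 88.0 and 95.1. No NP library reached the lowest CD69-hi library at any time. The log2 differences were 1.13 ± 0.30 (adjusted p = 0.00254), 3.07 and 3.37 ± 0.27 (adjusted p = 1.04e-16). It was the ribosomal gene with the highest fold at 24 h.

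Mrpl17, another early riser, went from 14.6, 16.4 and 12.0 CPM in NP to 27.6, 26.8 and 35.9 in MCC CD69-hi at 1 h, a log2 difference of 1.09 (adjusted p = 0.000168), and reached 80.7, 76.2 and 79.5 CPM at 24 h. Mrps36 has the name of a small subunit protein but is now counted with the 2-oxoglutarate dehydrogenase complex. Its level was 3.53, 3.0 and 3.0 CPM in NP at 1 h and 10.6, 12.8 and 6.49 in MCC CD69-hi, without overlap. The log2 difference was 1.54 (adjusted p = 0.0014), and 0.0615 with the B cell covariate, the only alternative of 14 under which it was not called. Mrpl36 rose by 0.93 at 1 h.

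The small subunit, in which Mrps36 is not counted here, had no gene called at 1 h. At 6 h its leading genes were Mrps6 and Mrps28, and Mrps18b, 1 of 3 paralogs of a single bacterial protein, was also among the 4 highest of the ribosomal family. Mrps28 moved from 4.45 and 2.99 CPM in NP to 41.4, 36.8 and 38.3 in MCC CD69-hi at 6 h (3.37), and Mrps18b from 7.25 and 5.98 to 30.6, 43.4 and 33.9 (2.44). For both genes the libraries of the groups were well separated. Mrps12, the protein of the decoding centre, rose by 1.51 at 6 h and by 2.27 at 24 h. In the large subunit, Mrpl3, a core protein near the peptidyl transferase centre, rose by 1.59 and 1.88.

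Mrps6 (chr16:92058336-92112227) showed 3.95 and 4.22 CPM in NP at 6 h and 73.6, 91.0 and 91.9 in MCC CD69-hi; at 24 h the values were 7.84, 5.27 and 5.92 against 62.5, 57.6 and 62.9. Its log2 difference was 4.38 ± 0.46 (adjusted p = 4.74e-11) at 6 h and 3.27 at 24 h. The gene overlaps Slc5a3 (chr16:92058322-92087473), which encodes a sodium-coupled inositol transporter. In the same libraries Slc5a3 averaged 25.8 ± 5.05 CPM in NP and 574.0 ± 143 in MCC CD69-hi at 6 h (log2 4.47, adjusted p = 1.02e-12), and differed by 2.11 at 24 h and by 0.30 (adjusted p = 0.498) at 1 h. Reads of the pair may be uncertain where they share sequence, and the part of Slc5a3 in the Mrps6 value was not tested.

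Mrpl24 (chr3:87918131-87923450) was the ribosomal gene called lower at 1 h and at 24 h. NP libraries had 82.1, 83.8 and 86.4 CPM at 1 h and 103, 108 and 104 at 24 h. Those of MCC CD69-hi had 54.3, 42.0 and 53.8 at 1 h and 61.8, 61.9 and 60.3 at 24 h, all below NP. It fell by 0.72 on the log2 scale at 1 h (adjusted p = 0.000293) and by 0.77 ± 0.14 at 24 h (adjusted p = 5.61e-06), and both calls held in each of 14 alternatives. At 6 h the difference was -0.25 and passed in DESeq2 alone. Mrpl24 overlaps Rrnad1, whose log2 differences were -0.51 at 1 h, -0.54 at 6 h and -0.91 at 24 h (adjusted p = 0.000143).

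Per gene length, Mrpl24 was the most abundant ribosomal member in NP. In NP at 24 h it stood at 1.39 ± 0.04 per 10000 of the length-scaled signal, ahead of Mrpl52 at 0.632 ± 0.13, Mrpl30 at 0.625 ± 0.151 and Mrpl37 at 0.52 ± 0.044 (SD, n = 3), whose ranges overlap, with a family median of 0.209. In MCC CD69-hi at 24 h the order was headed by Mrpl52 at 1.95 ± 0.045, Mrpl20 at 1.82 ± 0.037 and Mrpl2 at 1.73 ± 0.11, and the median was 0.623.

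Other ribosomal genes called lower at 1 h were Mrpl14, Mrpl37, Mrpl40, Mrpl41 and Mrpl44. Under the RLE scaling Mrpl37, Mrpl40, Mrpl41 and Mrpl44 lost the call, so that of the 6 only Mrpl14 and Mrpl24 kept it. Mrpl14 had 5.99, 6.60 and 4.93 CPM in NP at 1 h and 1.57, 4.66 and 0.928 in MCC CD69-hi, all lower, and its log2 difference was -1.72 (adjusted p = 0.0189). Over 14 alternatives that adjusted p ran from 0.00779 to 0.237, and leaving out any of 4 libraries (MCC CD69-hi replicates 1 and 3, NP replicates 1 and 2) ended the call. At 24 h the same gene was higher, with 3.22, 6.97 and 5.62 CPM in NP against 15.3, 14.3 and 18.9 (1.61).

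A few ribosomal genes took a course of their own. Mrpl34 had 16.0 and 13.7 CPM in NP at 6 h and 7.82, 10.8 and 9.33 in MCC CD69-hi, a difference of -0.66 that did not pass (adjusted p = 0.07) but was called lower in 5 of 13 alternatives (lowest 0.0156). At 24 h it had 9.85, 17.7 and 18.5 in NP and 39.6, 35.2 and 40.1 in MCC CD69-hi, and rose by 1.31. Mrpl18, a protein of the central protuberance of the large subunit, did not differ by the test at 6 h (16.1 and 14.2 CPM against 14.9, 18.8 and 22.4; log2 0.30). At 24 h it went from 14.1, 10.4 and 15.8 to 74.2, 51.3 and 65.7 CPM, a rise of 2.24. Mrpl18 overlaps Tcp1, a subunit of the cytosolic chaperonin, which differed by 0.40, 2.06 and 3.04 at the 3 times.

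Mrpl33 was the ribosomal gene that rose at 6 h and not at 24 h. It had 22.2 and 18.6 CPM in NP and 24.7, 32.7 and 36.3 in MCC CD69-hi at 6 h (0.61), then 24.5, 23.3 and 26.3 against 20.4, 21.6 and 19.7 at 24 h (-0.27, adjusted p = 0.309; called lower by DESeq2 and with the compared groups alone). All CD69-hi libraries were thus above NP at 6 h and below it at 24 h. Mrps16 (18.9 and 17.9 CPM against 12.1, 13.9 and 11.9) was below NP at 6 h without passing, except in the same 2 alternatives, and rose by 1.24 at 24 h. The smallest rise at 24 h was that of Mrps9, from 56.3, 52.0 and 58.0 to 71.9, 71.6 and 71.2 CPM (0.37, adjusted p = 0.0296), and 9 of 14 alternatives did not call it (adjusted p from 0.00339 to 0.216).

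**Figure D3:**
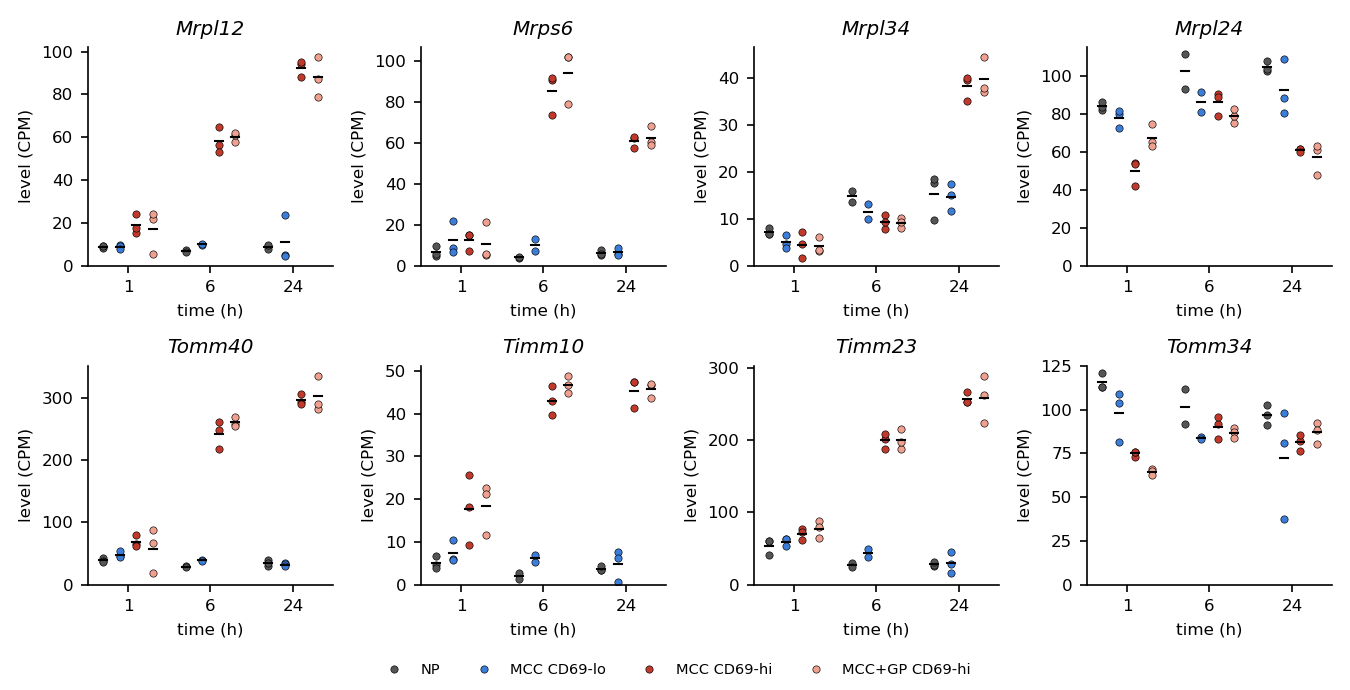
CPM per library (points) and group means (bars) against time in hours for 4 ribosomal and 4 import genes in NP, MCC CD69-lo, MCC CD69-hi and MCC+GP CD69-hi. Mrpl12, Tomm40 and Timm23 reach 95.1, 306 and 267 CPM in the highest MCC CD69-hi libraries at 24 h, Mrps6 and Timm10 are near their top by 6 h, Mrpl34 is high at 24 h alone, and Mrpl24 ends below NP.

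Among the import genes, the TOM complex of the outer membrane had 7 tested members, of which 3 rose at 1 h, 5 at 6 h (median 1.72) and 7 at 24 h (median 1.86). Of all genes, 12.4% rose at 1 h, 23.2% at 6 h and 29.2% at 24 h. Tomm40 (chr7:19701313-19715442), the channel protein, had 42.7, 38.0 and 37.1 CPM in NP at 1 h and 65.4, 80.4 and 61.5 in MCC CD69-hi. At 6 h the libraries held 30.3 and 27.8 against 248, 218 and 261 CPM, and at 24 h 38.8, 29.2 and 34.6 against 306, 293 and 291. The groups did not overlap at any time. The log2 differences were 0.78 (adjusted p = 0.00179), 3.06 and 3.12 (adjusted p = 5.13e-21).

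The receptors of the TOM complex had smaller rises than Tomm40, in differences not tested against it. Tomm20, which binds presequences, went from 118, 120 and 82.3 to 137, 159 and 152 CPM at 1 h (0.47, adjusted p = 0.0381), a call lost without NP replicate 3 (the highest adjusted p over 14 alternatives was 0.239), and rose by 1.86 at 24 h. Tomm70a, the receptor for carrier precursors, did not pass at 1 h and had 70.8, 64.6 and 85.1 CPM in NP against 437, 400 and 441 in MCC CD69-hi at 24 h (2.53). Tomm22, the central receptor, rose by 0.87 at 6 h and by 1.52 at 24 h. The small subunit Tomm5 reached 152, 139 and 151 CPM from 10.9, 19.2 and 16.7 (3.23), whereas Tomm7 differed by 0.61 at 6 h without passing (adjusted p = 0.0585; called in 3 of 13 alternatives) and rose by 1.20 at 24 h.

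Tomm34 is a cytosolic co-chaperone rather than a part of the membrane complex, and it did not follow the family. Its level was 113, 113 and 121 CPM in NP and 73.2, 75.8 and 76.1 in MCC CD69-hi at 1 h, with all CD69-hi libraries lower. It fell by 0.63 (adjusted p = 0.00436); 3 of 14 alternatives lost the call, namely leaving out MCC CD69-hi replicate 1 or 3 and the B cell covariate, with an adjusted p of up to 0.383. At 24 h 96.9, 103 and 91.4 CPM stood against 76.5, 82.4 and 85.3, a difference of -0.25 that did not pass (adjusted p = 0.185) but was called in 4 of 14 alternatives, DESeq2 among them.

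The TIM23 complex and its motor had 6 tested members, with 2 rises at 1 h, 5 at 6 h (median 1.46) and 6 at 24 h (median 2.03). The shares of all genes that rose were 12.4%, 23.2% and 29.2%. Timm23 itself, the channel subunit, had 26.3, 26.9 and 31.0 CPM in NP and 267, 252 and 253 in MCC CD69-hi at 24 h (3.19), and 2.87 at 6 h. Timm50, the receptor that guides presequences to the channel, rose from 21.7, 14.3 and 22.0 to 188, 170 and 171 CPM (3.18), and already at 1 h by 0.76 (adjusted p = 0.00347; 0.097 with the B cell covariate). Timm44, which anchors the motor, gained 0.87 at 6 h and 1.01 at 24 h. The smallest value was that of Timm21, 0.65 at 24 h (adjusted p = 0.0212), a call that was lost without MCC CD69-hi replicate 1 or NP replicate 1, with the RLE scaling and with the B cell covariate (highest adjusted p 0.167 over 14 alternatives).

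Timm17a and Timm17b are alternative partners of Timm23. At 24 h Timm17a rose from 29.4, 30.1 and 32.5 to 186, 169 and 181 CPM (2.54) and Timm17b from 13.1, 13.0 and 20 to 46.7, 43.8 and 43.0 (1.52). On the length-scaled values the log2 ratio of Timm17a to Timm17b was 0.11 ± 0.27 in NP and 1.08 ± 0.06 in MCC CD69-hi at 24 h (SD, n = 3 each, exact two-sided permutation p = 0.1, the smallest that 3 against 3 allows; 0.282 adjusted over the 24 ratios tested). Timm8a1 over Timm8b (-2.13 ± 0.59 and -0.87 ± 0.18), Tomm40 over Tomm40l (2.91 ± 0.67 and 5.03 ± 0.17) and Mrpl12 over Mrpl10 (-1.36 ± 0.28 and 0.89 ± 0.13) gave the same exact permutation p of 0.1 at 24 h, with all CD69-hi libraries higher. Mrps18b over Mrps18a was higher by 1.34 in MCC CD69-hi at 6 h and by 0.09 at 24 h, where the groups overlapped.

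The TIM22 route, with Timm22 and the small Tims, had 8 tested members: 2 rose at 1 h, 6 at 6 h (median 1.75) and 6 at 24 h (median 2.18), where 1 fell. Among all genes 12.4%, 23.2% and 29.2% rose at these times, and 28.7% fell at 24 h. Timm10 (chr2:84827021-84830213), which with Timm9 forms the main chaperone of the intermembrane space, was the member with the largest difference at 1 and at 6 h. It had 4.61, 3.80 and 6.64 CPM in NP and 25.6, 9.32 and 18.2 in MCC CD69-hi at 1 h, then 2.63 and 1.23 against 39.6, 43.0 and 46.4 at 6 h. No libraries overlapped. The log2 differences were 1.93 ± 0.40 (adjusted p = 0.000142) and 4.45 ± 0.49 (adjusted p = 2.48e-11), and 3.58 at 24 h.

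Its partner Timm9 had 9.53, 10.4 and 13.9 CPM in NP and 16.9, 29.1 and 14.5 in MCC CD69-hi at 1 h, higher in each library without passing (0.72, adjusted p = 0.064), though 8 of 14 alternatives called it (lowest 0.00855). It rose by 2.97 at 6 h and 2.19 at 24 h. Timm8a1, of the Timm8 and Timm13 chaperone, had 3.42, 1.69 and 2.43 CPM in NP and 49.0, 49.3 and 48.6 in MCC CD69-hi at 24 h (4.28 ± 0.39), the highest fold of all members. Its rise at 1 h (1.44, adjusted p = 0.00412) was lost without MCC CD69-hi replicate 3 (adjusted p = 0.074). Timm22, the carrier translocase, did not pass at 1 h and rose by 1.13 and 1.95.

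Timm8a2, a second Timm8a gene, went the other way at very low counts. The libraries at 24 h held 1.81, 1.51 and 0.911 CPM in NP and 0.141, 0 and 0 in MCC CD69-hi, or 23 reads against 1. On TMM-scaled depths NP was 28.6-fold higher (exact 95% interval 4.64 to 1180, for counting error only), and the quasi-likelihood test gave an adjusted p of 0.00342. Timm10b (the tested row, ENSMUSG00000089847) did not pass edgeR's test at any of the 3 times. Its value was -0.74 at 24 h, where DESeq2 called 5 members lower in place of 2.

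Whether the response itself grew between 6 and 24 h was asked with a difference of differences. Of all genes, 13.7% responded more positively at 24 h and 9.21% more negatively. Among members it was 23 and 1 of 76 ribosomal genes and 1 and 0 of 22 import genes; without NP 6 h replicate 1 the calls fell from 25 to 11. The largest gains were those of Mrpl34, at 1.97 ± 0.40 (adjusted p = 0.000173), and Mrpl18, at 1.94 ± 0.38 (adjusted p = 8.9e-05); Mrpl33 had the opposite sign (-0.88, adjusted p = 0.0466), lost in 12 of 19 alternatives. The fold was larger at 24 h than at 6 h for 67 of 76 ribosomal genes and 17 of 22 import genes, counted without a test. The same NP libraries of 6 h enter all of these differences. The median difference of differences was 0.532 over the tested members and -0.004 over all genes. At 6 and 24 h Mrpl12 differed from NP by 3.07 and 3.37, and Tomm40 by 3.06 and 3.12.

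Within MCC CD69-hi, 61 ribosomal and 16 import genes rose from 1 to 6 h and none of either fell (22.2% of all genes rose and 18.5% fell), led by Mrps6 at 2.86, Mrps2 at 2.37, Tomm5 at 1.94 and Tomm70a at 1.87. From 6 to 24 h, 40 ribosomal genes rose and 2 fell, and 5 import genes rose and none fell (21.3% and 16.9% of all genes). Mrpl34 rose most, by 2.03, followed by Mrpl18 at 1.76. Those falling were Mrpl33 (-0.60, lost without MCC CD69-hi 6 h replicate 2 or 3 or 24 h replicate 1 or 3) and Mrpl24 (-0.49, lost with the B cell covariate, adjusted p = 0.0718). The import genes that rose then were headed by Timm13 at 0.79 and Timm22 at 0.71, a call lost without MCC CD69-hi 24 h replicate 2 or 6 h replicate 1 and with the B cell covariate (highest adjusted p 0.278); with the B cell covariate, 27 members in place of 47 were called from 6 to 24 h.

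In NP cells over time, members were called lower about as often as all genes were, and few were called higher. From 1 to 24 h 2 of 76 ribosomal genes rose and 11 fell. Of 22 import genes 0 rose and 3 fell, where 11.3% of all genes rose and 12.6% fell. Mrps28 (-0.97 ± 0.32) and Timm23 (-0.94 ± 0.19) fell furthest, while Mrpl34 rose by 1.10 ± 0.29 and Mrps35 by 1.03 ± 0.23. The Mrps28 call was lost without NP 1 h replicate 1 or 2 or NP 24 h replicate 1 (highest adjusted p 0.133). Timm23 had 60.6, 59.6 and 41.4 CPM at 1 h and 26.3, 26.9 and 31.0 at 24 h. The 16 calls became 7, 8, 10 and 7 without NP 1 h replicate 1, NP 1 h replicate 2, NP 24 h replicate 1 and NP 24 h replicate 2, and the RLE scaling gave 6 higher and 11 lower (35.3% higher, from 12.5%).

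MCC-exposed cells that stayed CD69-lo were set against NP and against CD69-hi cells. At 1 h and 6 h no member passed against NP, where 3.15% and 2.12% of all genes did. By edgeR's unadjusted p, 3 ribosomal and 0 import genes were under 0.05 at 1 h and 4 and 3 at 6 h; DESeq2 called 1 and 0, and 2 and 2. Tomm40, for example, had 39.4 and 38.1 CPM in MCC CD69-lo and 30.3 and 27.8 in NP at 6 h, and Timm10 5.23 and 7.01 against 2.63 and 1.23.

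At 24 h, 5 ribosomal genes rose and 1 fell in MCC CD69-lo against NP, and 0 import genes passed (1 at an unadjusted p under 0.05 in edgeR, 0 in DESeq2), with 9.83% of all genes higher and 8.65% lower. Mrpl14 was the largest, at 16.1, 12.6 and 14.2 CPM against 3.22, 6.97 and 5.62 in NP (1.41 ± 0.42, adjusted p = 0.0143), beside 15.3, 14.3 and 18.9 CPM in CD69-hi cells. Mrpl16 (1.03), Mrpl20 (0.84), Mrpl18 (0.83) and Mrpl51 (0.60, adjusted p = 0.0469) rose too. Leaving out NP 24 h replicate 1 ended the call of Mrpl14, leaving out MCC CD69-lo replicate 2 or NP 24 h replicate 2 or 3 that of Mrpl16, and 8 of 14 alternatives that of Mrpl51. Mrps5 fell, with 24.6, 29.5 and 35.6 CPM against 53.5, 50.8 and 51.9 (-0.78, adjusted p = 0.00398). The 6 calls became 3 without NP 24 h replicate 1 or replicate 2. In this comparison 8 of 11 tested myeloid and dendritic genes and 7 of 9 MHC class II genes rose, 5 of 9 T cell genes fell and 0 of 10 B cell genes passed (7 at an unadjusted p under 0.05 in edgeR), and their part in these values was not tested.

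CD69-hi cells were also compared with CD69-lo cells of the same MCC exposure, with the CD69-hi libraries shared with the comparison to NP. At 1 h, 5 ribosomal genes rose and 1 fell and 4 import genes rose, where 3.46% of all genes rose and 9.06% fell. Timm8a1 (1.40), Timm10 (1.36), Mrps36 (1.15) and Mrpl12 (1.13) led, and Mrpl24 was lower (-0.61, adjusted p = 0.00532). The 10 calls became 6, 5 and 4 without MCC CD69-hi replicate 1, MCC CD69-hi replicate 2 and MCC CD69-lo replicate 2, and each of these 5 genes lost its call in 1 to 7 of 14 alternatives. At 6 h the counts were 62 and 1, and 15 and 0 (19.9% and 22.5% of all genes), with Mrps16 called lower (-0.72, adjusted p = 0.0336, lost in 6 of 13 alternatives and without either MCC CD69-lo library), and at 24 h they were 73 and 1, and 18 and 1 (29.1% and 32.6%).

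Whether GP altered these genes was asked in resting and in MCC-exposed cells. In GP alone against NP no member passed at any time, and 0.0% of all genes did at 1 and 6 h and 0.00581% at 24 h. No member had an unadjusted p under 0.05 in edgeR, and DESeq2 called none. Differences of ribosomal genes lay between -0.40 and 0.40 at 1 h, between -0.67 and 0.50 at 6 h (2 libraries a group) and between -0.38 and 0.57 at 24 h. Those of import genes lay between -0.66 and 0.40, between -1.09 and 0.95 and between -0.10 and 0.40. At 6 h the 95% interval lay within a 2-fold change for 65 of 76 ribosomal and 17 of 22 import genes. At 24 h the 95% interval lay within a 2-fold change either way for 68 of 76 ribosomal and 16 of 22 import genes.

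In CD69-hi cells, MCC+GP against MCC gave 0 called members at each time, where 0.68% of all genes passed at 1 h and 0.0% at 6 h and 24 h. At 1 h edgeR gave an unadjusted p under 0.05 to 10 ribosomal and 2 import genes and DESeq2 called 3 and 0; at 6 and 24 h both gave 0. Without MCC CD69-hi replicate 2 edgeR called 1 member at 1 h, and without MCC+GP CD69-hi replicate 3 it called 2. At 24 h, the intervals of all 76 ribosomal genes and 20 of 22 import genes lay within a 2-fold change, and the ribosomal values ran from -0.23 to 0.22. Mrpl12 had 97.5, 78.9 and 87.4 CPM with GP and 94.3, 88.0 and 95.1 without, and Tomm40 had 336, 282 and 291 against 306, 293 and 291, with overlapping libraries.

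MCC+GP CD69-hi against GP shares no library with MCC CD69-hi against NP, and gave its own answer to the same question. At 1 h 6 ribosomal genes rose and 3 fell and 6 import genes rose and 4 fell (13.7% of all genes rose and 20.1% fell); with the RLE scaling, which moved the median of all genes by 0.21, the split went from 12 higher and 7 lower (63.2% higher) to 28 and 4 (87.5%). Genes that rose in both were Mrpl12, Mrpl17 and Mrpl20, 3 of 6 in each comparison, and Timm10, Timm8a1 and Tomm5, 3 of 7 and 3 of 6. Mrpl37 and Tomm34 fell in both. Tomm34 was among the 4 falls here that held under RLE, with Mrps26, Timm22 and Tomm40l; Timm22 and Tomm40l rested on 15 and 3 reads in the CD69-hi libraries. The libraries of MCC+GP CD69-hi varied at 1 h, with Mrpl12 at 5.33, 21.7 and 24.4 CPM and Tomm40, which was not called, at 87.4, 18.6 and 66.6. Without MCC+GP CD69-hi replicate 3, Mrpl12 (highest adjusted p 0.102), Mrps26 and Tomm40l were not called, and without replicate 2 Timm8a1 was not (0.0619).

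At 6 h 60 ribosomal and 17 import genes rose in MCC+GP CD69-hi against GP and none fell (23.5% and 23.2% of all genes), and 55 of the 60 and 16 of the 17 were also called for MCC alone, which is 55 of 58 and 16 of 16 there. At 24 h 74 and 18 rose and 1 and 1 fell (29.5% and 29.0% of all genes). All 74 ribosomal and 18 import genes were shared with the 74 and 19 of MCC alone, and the genes lower in both were Mrpl24 (-0.79, adjusted p = 3.87e-06) and Timm8a2 (2 reads against 25; GP 15.3-fold higher, exact 95% interval 3.80 to 133). Over the 98 tested members the log2 differences of the 2 comparisons had a Pearson r of 0.52 at 1 h, 0.97 at 6 h and 0.98 at 24 h, given as a description, with genes as points.

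**Figure D4:**
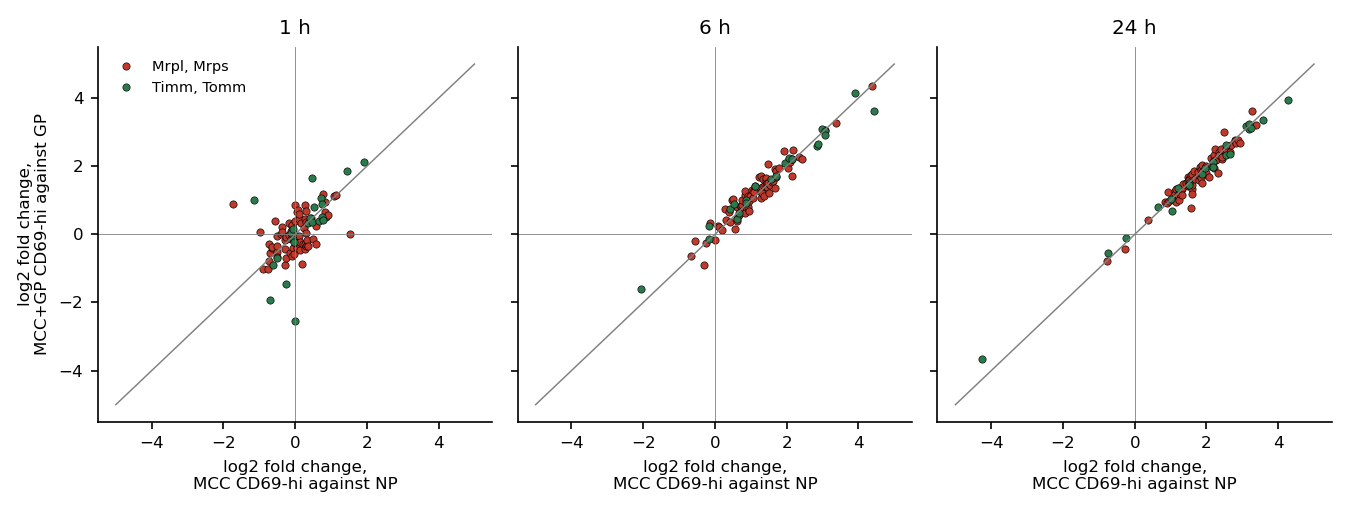
Log2 fold change of MCC+GP CD69-hi against GP (vertical) against that of MCC CD69-hi against NP (horizontal) for each of 98 tested members at 1, 6 and 24 h; the line marks equal values. Points scatter about 0 at 1 h (r = 0.52) and lie along the line at 6 h (0.97) and 24 h (0.98).

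For CD69-lo cells, MCC+GP against MCC gave no called member at 1 and 6 h (0.0% of all genes at either time). EdgeR gave an unadjusted p under 0.05 to 0 members at 1 h and to 2 ribosomal and 1 import gene at 6 h, and DESeq2 called none. At 24 h, where the MCC+GP libraries are the shallow ones, 4 ribosomal genes rose and 7 fell and 1 import gene rose and 4 fell (7.37% and 12.0% of all genes). Without MCC+GP CD69-lo replicate 1, 6 members were called in place of 16, and the RLE scaling, which moved the median of all genes by 0.22, gave 8 higher and 5 lower (61.5% higher, from 31.2%). The furthest were Mrpl49 (1.92), Mrps15 (1.26), Mrps9 (-3.01) and Mrps35 (-2.12); of these Mrps9 alone was called without replicate 1. Timm9 had 0 reads in all 3 libraries against 72 in MCC CD69-lo, at least 2.97-fold lower on TMM-scaled depths with a floor of 3 counts over the group; the call was lost without MCC+GP CD69-lo replicate 1 or 3 (highest adjusted p 0.07). Myeloid and dendritic genes summed to 7954 CPM in this group and 1398 in MCC CD69-lo; their part in these calls was not tested.

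Across the 18 group means, each member's log2 CPM was set against the median of the other members of its family, as a description over groups that share times and sorts. The median Pearson r was 0.90 for the 76 ribosomal genes (0.37 to 0.99) and 0.93 for the 20 import genes with enough reads (0.38 to 0.99). Mrpl33, Mrpl24 and Mrpl49 among the former and Tomm7, Tomm40l and Tomm34 among the latter had r under 0.5. Of 10158 genes, the 5 whose profile over the groups was most like that of Mrpl12 were Lyar (0.991), C1qbp, Chchd4, Ampd2 and Noa1 (0.988). For Tomm40 they were Xpot (0.994), Eif3b, Utp6, Eif3c and Bccip (0.99). The median over all genes was 0.30 for Mrpl12 and 0.26 for Tomm40.

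Genes of the same pathways under other names were counted in lists, again for MCC CD69-hi against NP. The genes named from these lists were picked after their values were seen. Of all genes tested, 12.4% rose and 17.0% fell at 1 h. At 6 h 23.2% rose and 23.6% fell, and at 24 h 29.2% rose and 28.7% fell. Of 15 other import genes, 14 rose at 6 h and 14 at 24 h (medians 1.21 and 1.5) and none fell at either. Hspa9, the Hsp70 of the import motor, averaged 305.0 ± 26.5 CPM in NP and 498.0 ± 31.2 in MCC CD69-hi at 1 h (0.71, adjusted p = 0.000286) and 130.0 ± 12.5 and 1490 ± 96.2 at 24 h (3.52; n = 3 each). Chchd4, the import oxidoreductase of the intermembrane space, rose by 1.52 at 1 h, the largest early rise of that list, and by 3.77 and 3.58 later. Among 11 processing peptidases and chaperonins 6 and 10 rose, with Hspd1 at 76.9 ± 9.89 and 2410 ± 102 CPM at 24 h (4.97).

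Subunits of the ribosome with other names followed the members, with 3 of 5 higher at 6 h and 5 of 5 at 24 h (medians 1.23 and 1.42). Of the assembly factors, 6 of 18 rose at 6 h and 9 at 24 h, where Mettl17 fell, and 5 fell and 1 rose at 1 h (medians 0.44 and 0.69 at 6 and 24 h). Among all genes 23.2% rose at 6 h, 29.2% rose at 24 h and 17.0% fell at 1 h. The lists were not tested against these shares. Noa1, a GTPase of small subunit assembly, rose by 2.91 at 6 h. Of 11 translation factors, 4 rose and Gfm2 fell at 6 h and 7 rose at 24 h (medians 0.14 and 0.49), with the elongation factors Tufm at 35.1 ± 4.16 and 207.0 ± 9.16 CPM and Gfm1 at 24.5 ± 2.15 and 189.0 ± 14.4 in NP and MCC CD69-hi at 24 h. Among 11 genes listed under mitochondrial transcription and RNA stability, 8 rose and 2 fell at both later times. Lrpprc, which protects mitochondrial messages, rose by 2.63 at 6 h. The falls were those of Polg and Polg2 (-0.71 and -3.20 at 6 h). They are the subunits of the DNA polymerase, so the list name does not hold for them.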

How the data were processed

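Poly(A) RNA of sorted cells was sequenced in paired reads. Per the submitters' processing notes, bcl2fastq 2.20, STAR 2.6.1c and HTSeq 0.9.1 were used with build mm10; settings, strand and annotation version are not given in the sources used here. The deposited table of counts per gene (34923 rows, 51 libraries, 0 columns unused) was used for all tests. A second deposited table, labelled as TPM by the authors, sums to 9986 to 9996 per library, so its values are parts per 10000 of a length-scaled signal. It served for levels between genes and for ratios of gene pairs, of which Mrpl12 and Mrpl10 are not paralogs. Ratios were taken as log2 of value + 0.01 with an exact permutation test.

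Counts were scaled by TMM, filtered with filterByExpr (17211 genes kept) and fitted with edgeR 4.0.16 (R 4.3.3, limma 3.58.1), quasi-likelihood F test, two-sided, 1 coefficient per group over all 51 libraries, Benjamini-Hochberg adjustment over all genes at 0.05. CPM values are counts over the TMM-scaled library total, except for sums of cell type genes, which are over the raw total. Counting intervals and the floor of 3 counts cover counting error only. DESeq2 1.42.0, RLE size factors, no filter, the compared groups alone, a B cell RNA covariate, a plate block and leaving out each library were tried. Over 48 pairs of libraries of the same group, chi-square divided by its degrees of freedom lay between 4.17 and 21.7, above sampling noise in each pair. The fitting script was tested on simulated data with known changes in MCC CD69-hi at 24 h. Against NP it recovered 49 of 100 2-fold and 62 of 100 4-fold changes and called 6 unchanged genes.

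The members and lists were chosen with earlier results of these data known. Genes named are, for each time of MCC CD69-hi against NP and each family, the 4 highest and 4 lowest by log2 fold change with a mean of at least 5 CPM, members called against the main direction, a fixed panel, and in other comparisons all called members or the 2 highest and 2 lowest of each family; other named genes were chosen after their values were seen. Titles give a plate well but name no pass through the plate. The pass of each library was inferred here from the order of the wells. Pairs of libraries from the same inferred pass had a median correlation of deviations of 0.13 (366 pairs), against -0.05 (861 pairs) for different passes. The labels give no replicate numbers, so the main fit has no block.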

Additional observations from a re-analysis of the deposited data

Results flagged for a closer look

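The response of MCC CD69-hi against NP differed between 24 and 6 h, by a test of the difference of differences (edgeR's quasi-likelihood test, adjusted over all genes), for 24 ribosomal genes and 1 import gene. Of those named, Mrpl34 gained 1.975 (adjusted p = 0.000173) and Mrpl18 1.941 (adjusted p = 8.9e-05). Mrpl41 gained 0.857 (adjusted p = 0.0454), and 10 of 19 alternatives did not call it. Tomm22, the import gene, gained 0.659 (adjusted p = 0.0471), and 13 of 19 alternatives did not call it. Mrpl33 had the opposite sign, at -0.878 (adjusted p = 0.0466), and 12 of 19 alternatives did not call it.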

How the results depend on the processing

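Counts of called members kept within 1.5 times of the value reported, apart from the following, and no called difference of a named gene changed sign. Medians over all members did change sign: with RLE and DESeq2, that of MCC+GP CD69-lo against MCC CD69-lo at 24 h went from -0.19 to 0.03 and 0.04, that of MCC+GP CD69-hi against GP at 1 h from -0.02 to 0.23 and 0.23, and that of the CD69-hi cells with GP against those without at 1 h from -0.06 to 0.04 and 0.02. With DESeq2, MCC+GP CD69-hi against GP at 1 h gave 33, MCC CD69-lo against NP 1, 4 and 13 at the 3 times, MCC CD69-hi against MCC CD69-lo at 1 h 25, the CD69-hi cells with GP against those without at 1 h 3, and NP over time 30. RLE scaling gave 32 and 17 for the first and the third of these comparisons at 1 h. Without a filter, MCC CD69-lo against NP at 6 h gave 2 and MCC+GP CD69-lo against MCC CD69-lo at 24 h 10. With only the compared groups fitted, MCC CD69-lo against NP at 24 h gave 3, MCC CD69-hi against MCC CD69-lo at 1 h 1, MCC+GP CD69-lo against MCC CD69-lo at 24 h 2, NP over time 32 and the difference of responses 48. The B cell covariate gave 13 for MCC CD69-hi against NP at 1 h, 1 for MCC CD69-lo against NP at 6 h and 27 for MCC CD69-hi from 6 to 24 h. Without the first NP libraries of 6 and 24 h together, MCC CD69-lo against NP at 24 h gave 3, NP over time 10 and the difference of responses 8. Without the 3 shallow libraries, the CD69-hi cells with GP against those without at 1 h gave 1. The cause of these moves was not tested.

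Leaving out single libraries gave 16 to 19, 65 to 76 and 92 to 94 called members for MCC CD69-hi against NP at 1, 6 and 24 h, and 15 to 25, 63 to 73 and 92 to 93 for MCC+GP CD69-hi against GP. The ranges were 4 to 13, 65 to 78 and 87 to 92 for MCC CD69-hi against MCC CD69-lo, 3 to 8 for MCC CD69-lo against NP at 24 h, 0 to 2 for the CD69-hi cells with GP against those without at 1 h, and 6 to 18 for MCC+GP CD69-lo against MCC CD69-lo at 24 h. MCC CD69-hi gave 65 to 77 from 1 to 6 h and 33 to 39 from 6 to 24 h, NP over time 7 to 16 and the difference of responses 11 to 22.

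With the inferred plate pass as a replicate block, MCC CD69-hi against NP gave 23, 76 and 95 called members in place of 20, 74 and 95. All 25 counts stayed within 1.5 times. A pseudocount of 0.001 left the 24 ratios of gene pairs on the same side. Depth limits the 1 h CD69-hi groups and above all MCC+GP CD69-lo at 24 h, where the median SE of a ribosomal gene was 0.512, against 0.224 for the CD69-hi cells with GP against those without at 24 h.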

Other observations

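Messages of the mitochondrial genome itself, which the mitochondrial ribosome reads, were mostly called at 24 h. In MCC CD69-hi against NP, 0 of 13 passed edgeR's test at 1 h, 1 rose at 6 h and 11 rose at 24 h, with medians of 0.21, 0.22 and 0.84 on the log2 scale. Of all genes tested, 12.4% rose at 1 h, 23.2% at 6 h and 29.2% at 24 h. Summed over the 13, NP libraries averaged 12130 ± 2789 CPM at 1 h, 10300 ± 4379 at 6 h and 6620 ± 1661 at 24 h, and MCC CD69-hi 13660 ± 1097, 12180 ± 1243 and 12680 ± 1188 (SD, n = 3, and 2 for NP at 6 h). The sum in CD69-hi cells was thus about level over time while that in NP was lower at 24 h. The gene that passed at 6 h was mt-Nd1, a complex I subunit (0.72, adjusted p = 0.012), which rose by 1.97 at 24 h. Libraries were made from poly(A) RNA, so these values concern polyadenylated messages.

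Genes of the cytosolic ribosome were also mostly called higher than NP at 24 h. Of 81 tested, 1 rose at 1 h, 29 at 6 h and 70 at 24 h, when 1 fell, beside 12.4%, 23.2% and 29.2% of all genes rising. Their medians were 0.03, 0.43 and 0.96, below those of the mitochondrial ribosome at both later times. Their sum averaged 70070 ± 18460, 53170 ± 15880 and 42390 ± 9866 CPM in NP at 1, 6 and 24 h. In MCC CD69-hi it averaged 69920 ± 6034, 71900 ± 8171 and 84810 ± 1826 (SD, n = 3, and 2 for NP at 6 h). The difference at 24 h thus holds a lower mean in NP as well as a higher mean in CD69-hi cells. Over the 76 mitochondrial ribosomal genes, the fold at 24 h and the level in NP had a Pearson r of -0.66, with genes as points and the NP libraries entering both quantities. The 22 tested import genes did not share this, with a Pearson r of 0.17 and a Spearman rho of -0.13.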
